A study of Homo sapiens with 6 samples.

Results

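The small leucine-rich proteoglycans (SLRPs) followed here were DCN, BGN, ASPN, LUM, FMOD, PRELP, KERA, OMD, OGN and PODN. They are a list of names from the family, chosen with earlier results of these data known. Each gene was read from the probe set that carries its symbol alone and has the highest mean over the arrays, and each of the 10 had a single such probe set, so all 10 were among the 18417 genes measured. The data are 6 Affymetrix Gene 1.0 ST arrays of total RNA, 2 biological replicates for each of 3 fibroblast lines of the stepwise BJ system, which was built to follow a normal human cell to a transformed one. BJELM cells are BJEL cells that received the MYC-ER fusion by retrovirus (pBabe-MYC-ER) and were kept continuously in 4-hydroxytamoxyfen, with G-418, hygromycin and puromycin in the medium. BJEL cells are BJ cells carrying the catalytic subunit of telomerase (hTERT) and the SV40 early region, which encodes the large T and small t antigens, and were kept in G-418 and hygromycin. BJ cells are primary human foreskin fibroblasts with no introduced gene and no selection drug. The drugs and the tamoxifen derivative therefore cannot be told apart from the introduced genes, and the sources used here do not say whether a line is a single clone.

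SLRPs are secreted proteins with a core of leucine-rich repeats, to which most members carry chondroitin, dermatan or keratan sulfate chains or sulfated tyrosines. They bind fibrillar collagens and set the width and spacing of the fibrils in skin, tendon, cartilage and cornea, and several also bind growth factors and cell surface receptors. Decorin, biglycan and lumican are the members best known from the matrix that dermal fibroblasts make.

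TERT, the introduced catalytic subunit, had log2 signals of 10.84 and 10.78 in the arrays labelled BJELM and 10.71 and 10.97 in BJEL, against 7.77 and 7.88 in BJ. MYC had 9.57 and 8.90 in the arrays labelled BJELM, against 10.22 and 10.12 in BJEL and 9.47 and 9.61 in BJ. This MYC signal went against the label of the line that received MYC-ER. By western blot, which measures protein and not RNA, the study reported MYC-ER overexpressed at the tumorigenic step. It also named RT-qPCR, which measures RNA, as a check of exogenous MYC and TERT expression. The RT-qPCR values are not given in the sources used here. The study's own listed expression ratios also put MYC above BJ in BJEL and below BJ in BJELM. Where the MYC probes lie relative to the fusion is not given in the sources used here. CCND2 is a cyclin gene that the study measured by RT-qPCR as relevant to transformation. It had 10.75 and 11.08 in the arrays labelled BJELM, against 5.16 and 5.33 in BJEL and 5.95 and 5.53 in BJ. Arrays of one line correlated at 0.992 to 0.995 over all genes, and arrays of different lines at 0.943 to 0.981. Of 12 fibroblast markers, 8 fell in BJELM against BJ and 5 in BJEL against BJ by the test given below, while VIM had 12.98 and 12.87 in the arrays labelled BJELM, 12.95 and 12.89 in BJEL and 13.07 and 13.01 in BJ. EPCAM, PECAM1, PTPRC and MLANA, markers of epithelial, endothelial, blood and pigment cells, lay between 4.37 and 5.84 on every array. Other markers of the epithelial and blood lists were higher on every array, at 10.74 to 12.15 for KRT18, 8.80 to 11.23 for KRT19, 7.30 to 8.25 for KRT8 and 10.27 to 11.41 for CD68. KRT14 (6.94 to 7.33), CD14 (6.68 to 7.14) and the endothelial marker CLDN5 (6.70 to 6.93) also lay above that range on every array. No detection call was used, so which of these low signals are background is not known here.

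Promoters are shown for the members the results turn on and that the RefSeq promoter table lists, so that the sequence in front of BGN and PODN, which fell most among them, can be read beside that of FMOD and PRELP, whose differences were smaller. The table (GRCh38.p14) holds the 250 bases before and the 50 after each transcription start, and listed 6 of the 10 members in 7 windows, for BGN, PODN, FMOD, PRELP, ASPN and OGN. DCN, LUM, KERA and OMD were not listed. Capitals mark matches, on either strand, to the TATA box (TATAAA), the E-box (CACGTG), the GC box (GGGCGG), the CCAAT box (CCAAT) and the AP-1 site (TGANTCA). No matches overlapped. A match is only a run of letters and was not tested as a binding site.
BGN (chrX:153494730-153495029, + strand): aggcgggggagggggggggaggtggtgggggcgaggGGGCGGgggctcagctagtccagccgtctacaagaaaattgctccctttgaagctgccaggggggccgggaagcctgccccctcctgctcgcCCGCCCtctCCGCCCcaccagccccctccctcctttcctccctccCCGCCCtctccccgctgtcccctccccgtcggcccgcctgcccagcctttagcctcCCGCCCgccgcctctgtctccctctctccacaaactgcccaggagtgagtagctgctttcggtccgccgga
PODN (chr1:53061963-53062262, + strand): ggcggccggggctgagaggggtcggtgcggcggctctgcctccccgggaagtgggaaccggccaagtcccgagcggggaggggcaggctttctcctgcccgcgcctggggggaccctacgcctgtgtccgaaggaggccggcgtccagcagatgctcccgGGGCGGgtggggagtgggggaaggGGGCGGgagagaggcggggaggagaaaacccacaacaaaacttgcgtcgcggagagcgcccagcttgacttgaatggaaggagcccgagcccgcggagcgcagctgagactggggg
FMOD (chr1:203351073-203351372, - strand): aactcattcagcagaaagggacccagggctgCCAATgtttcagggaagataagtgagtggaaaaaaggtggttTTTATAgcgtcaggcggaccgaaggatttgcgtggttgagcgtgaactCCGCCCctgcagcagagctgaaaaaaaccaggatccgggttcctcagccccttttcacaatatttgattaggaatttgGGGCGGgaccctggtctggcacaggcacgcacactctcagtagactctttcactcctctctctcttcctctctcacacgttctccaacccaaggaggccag
PRELP (chr1:203475556-203475855, + strand): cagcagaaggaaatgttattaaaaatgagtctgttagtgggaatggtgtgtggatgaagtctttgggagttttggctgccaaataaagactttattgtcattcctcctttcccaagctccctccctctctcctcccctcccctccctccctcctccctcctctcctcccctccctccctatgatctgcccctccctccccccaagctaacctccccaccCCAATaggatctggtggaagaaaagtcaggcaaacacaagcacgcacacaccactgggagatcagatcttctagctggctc

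The BGN window held 5 GC boxes and the PODN window 2, and both were 71.7% G or C against a median of 58.7% over the 35116 promoters of the table, with 19 CpG pairs for BGN and 27 for PODN against a median of 14. The FMOD window held 2 GC boxes, 1 CCAAT box and 1 TATA box at 52.3% G or C with 10 CpG pairs, and the PRELP window held 1 CCAAT box at 52.7% G or C with 1 CpG pair. Neither the ASPN window nor the OGN windows held a GC box, and both OGN windows, which overlap, held the same TATA box. The ASPN window was 34% G or C with 3 CpG pairs, and the OGN windows were 38% and 33.3% with 0 CpG pairs each. The printed windows were picked with the differences known, and a link between promoter sequence and difference was not tested. The GC box was present in 45.0% of all promoters, the CCAAT box in 34.6%, the TATA box in 11.5%, the AP-1 site in 7.71% and the E-box in 7.26%. No SLRP window listed here held an E-box or an AP-1 site.

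Signals are robust multi-array average (RMA) values on the log2 scale, so a difference of 1 is a 2-fold change. A gene is said here to have risen or fallen where limma's two-sided moderated test gave an adjusted p (Benjamini-Hochberg over all 18417 genes) under 0.05 and the change was at least 2-fold. In BJELM against BJ, 4 of the 10 SLRPs fell (DCN, BGN, LUM and PODN), where 4.70% of all genes fell. In BJEL against BJ, 4 of the 10 fell (DCN, BGN, LUM and PODN), where 2.29% of all genes fell. No SLRP rose in BJELM against BJ (4.09% of all genes did) or in BJEL against BJ (2.89%), and the members with a positive difference overlapped BJ. These 2 comparisons share the BJ arrays. In BJELM against BJEL, 0 of the 10 passed by limma, where 2.68% of all genes rose or fell. There, 0 had an unadjusted p under 0.05 and 0 passed the plain t-test described below. The median SLRP difference was -0.88 in BJELM against BJ, -0.92 in BJEL against BJ and -0.02 in BJELM against BJEL, beside medians over all genes of 0.01, -0.02 and 0.03. The study used a modified t-test for unequal variances, and only the plain form of that test was run here. At its unadjusted threshold and the same fold minimum, the plain form passed 0 SLRPs in BJELM against BJ and 2 in BJEL against BJ (DCN and LUM). After Benjamini-Hochberg adjustment it passed 0 of all genes in each comparison. The p-values rest on 2 arrays per line, and in these bulk samples fewer cells of a type and less RNA per cell cannot be told apart.

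**Figure D1:**
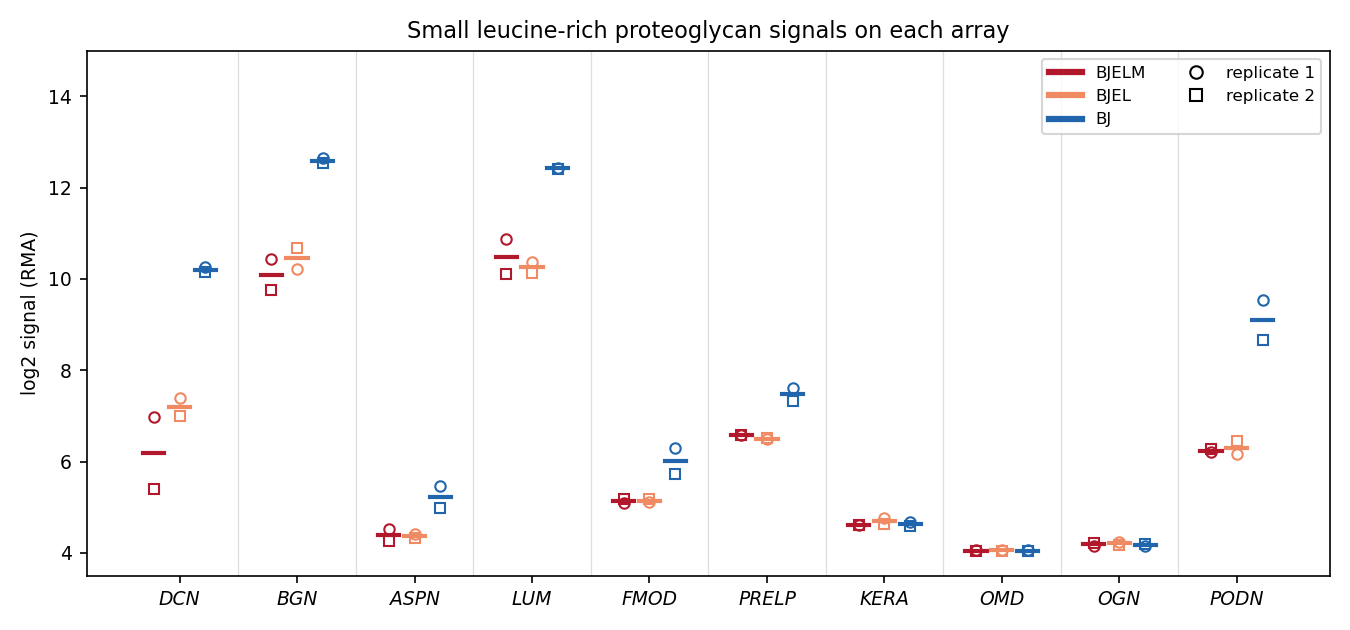
Log2 RMA signal (vertical axis) of each SLRP on each of the 6 arrays, BJELM, BJEL and BJ from left to right within a gene, with circles for replicate 1, squares for replicate 2 and bars for the mean of 2 arrays. DCN, BGN, LUM and PODN lie higher in BJ than in both other lines, and KERA, OMD and OGN stay between 4.03 and 4.77 on all arrays; heights of different genes come from different probes and are not comparable.

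Decorin (DCN, Entrez gene 1634), a proteoglycan with a single chondroitin or dermatan sulfate chain that binds collagen and several growth factors and receptors, had log2 signals of 6.98 and 5.40 in the arrays labelled BJELM and 7.39 and 7.001 in BJEL, against 10.26 and 10.15 in BJ. The 3 lines did not overlap, and the arrays labelled BJELM lay furthest apart, by 1.58. DCN fell by 4.02 ± 0.47 in BJELM against BJ (SE, adjusted p = 0.00188), to 6.17% of the BJ signal. That difference was -4.81 without BJELM replicate 1 and -3.23 without BJELM replicate 2. In BJEL against BJ it fell by 3.01 ± 0.47 (adjusted p = 0.00921), to 12.4%. With BJ replicate 1 left out the BJEL difference was -2.96 (adjusted p = 0.0586), and with BJEL replicate 2 left out it was -2.82 (adjusted p = 0.0531), so that either array decided this call. Between BJELM and BJEL the difference was -1.01 with a 95% interval of -2.15 to 0.14 (adjusted p = 0.254). It rested on BJELM replicate 2, since it was -0.22 without that array and -1.79 (adjusted p = 0.0105) without BJELM replicate 1.

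Biglycan (BGN, Entrez gene 633), the closest relative of decorin, which usually carries a pair of such chains and as a soluble protein engages Toll-like receptors, had 10.43 and 9.76 in the arrays labelled BJELM and 10.23 and 10.68 in BJEL, against 12.65 and 12.53 in BJ. All 4 arrays of the altered lines lay below both BJ arrays, while BJELM and BJEL overlapped. BGN fell by 2.49 ± 0.25 in BJELM against BJ (adjusted p = 0.0011), to 17.8% of the BJ signal, and by 2.13 ± 0.25 in BJEL against BJ (adjusted p = 0.00342), to 22.8%. The difference between BJELM and BJEL was -0.36 with an interval of -0.96 to 0.24 (adjusted p = 0.437).

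Asporin (ASPN, Entrez gene 54829), which shares the decorin fold but carries a stretch of aspartates and no such chain, had 4.53 and 4.26 in the arrays labelled BJELM and 4.42 and 4.32 in BJEL, against 5.45 and 4.98 in BJ. BJELM and BJEL overlapped, and both lay below BJ. The difference was -0.83 ± 0.18 in BJELM against BJ (adjusted p = 0.0162) and -0.85 ± 0.18 in BJEL against BJ (adjusted p = 0.0231), short of a 2-fold change. Over the 16 alternative settings of the limma fit that could be run for ASPN, the adjusted p reached 0.0711 in BJELM against BJ and 0.104 in BJEL against BJ.

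Lumican (LUM, Entrez gene 4060), a keratan sulfate member needed for regular collagen fibrils in mouse skin and cornea, had 10.87 and 10.10 in the arrays labelled BJELM and 10.37 and 10.14 in BJEL, against 12.43 and 12.41 in BJ. The BJ arrays differed by 0.02 and lay above every other array. LUM fell by 1.94 ± 0.24 in BJELM against BJ (adjusted p = 0.00235), to 26.1% of the BJ signal, and by 2.17 ± 0.24 in BJEL against BJ (adjusted p = 0.00306), to 22.2%. The difference between BJELM and BJEL was 0.23 with an interval of -0.35 to 0.82 (adjusted p = 0.62), and its sign rested on BJELM replicate 1, without which it was -0.15.

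Fibromodulin (FMOD, Entrez gene 2331), the closest relative of lumican, with sulfated tyrosines and a role in tendon collagen, had 5.08 and 5.17 in the arrays labelled BJELM and 5.11 and 5.17 in BJEL, against 6.30 and 5.72 in BJ. PRELP (Entrez gene 5549), which links matrix to basement membranes through a basic N-terminal stretch that binds heparan sulfate, had 6.59 and 6.57 in the arrays labelled BJELM and 6.49 and 6.51 in BJEL, against 7.62 and 7.32 in BJ. For both genes the BJ arrays lay above the other 4, and BJ replicate 1 lay above BJ replicate 2. FMOD differed by -0.88 ± 0.18 in BJELM against BJ (adjusted p = 0.0155) and by -0.87 ± 0.18 in BJEL against BJ (adjusted p = 0.0256). Over the 17 alternative settings of the limma fit, the adjusted p of FMOD reached 0.0595 in BJELM against BJ (without BJELM replicate 1) and 0.127 in BJEL against BJ (without BJEL replicate 1). PRELP differed by -0.89 ± 0.12 in BJELM against BJ (adjusted p = 0.00276) and by -0.97 ± 0.12 in BJEL against BJ (adjusted p = 0.00369), and its adjusted p stayed at or under 0.0141 and 0.0327 over the same settings. FMOD and PRELP were thus past the p threshold but short of 2-fold, as ASPN was. With no fold minimum, 7 of the 10 SLRPs passed in each of these comparisons, where 13.1% of all genes were lower in BJELM against BJ and 7.13% in BJEL against BJ. Without BJ replicate 2, ASPN, FMOD and PRELP also passed the fold minimum, with differences of -1.06, -1.17 and -1.04 in BJELM against BJ and -1.09, -1.15 and -1.12 in BJEL against BJ.

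Keratocan (KERA, Entrez gene 11081), the keratan sulfate member of the corneal stroma, had 4.61 and 4.62 in the arrays labelled BJELM and 4.77 and 4.63 in BJEL, against 4.68 and 4.58 in BJ. Osteomodulin (OMD, Entrez gene 4958), known from bone and dentin, had 4.06 and 4.05 in the arrays labelled BJELM and 4.07 and 4.04 in BJEL, against 4.06 and 4.03 in BJ. Osteoglycin (OGN, Entrez gene 4969), also called mimecan, had 4.16 and 4.22 in the arrays labelled BJELM and 4.25 and 4.17 in BJEL, against 4.14 and 4.19 in BJ. BJELM and BJEL each overlapped BJ for all 3 genes, and over the 6 arrays KERA spanned 0.19, OGN 0.11 and OMD 0.03. All 3 genes lay below the median level of genes, and none reached a mean of 6 in any line, as was also so for ASPN. No detection call was used, so an unchanged gene cannot be told here from a signal at background. FMOD, PRELP and PODN also lay below the median level. FMOD in BJELM and BJEL (5.08 to 5.17) and DCN in BJELM replicate 2 (5.40) lay in the range of the low markers above. Whether background limited the size of the FMOD and DCN differences is not known here. The 95% intervals of the difference were -0.24 to 0.20 for KERA, -0.19 to 0.19 for OMD and -0.19 to 0.22 for OGN in BJELM against BJ. In BJEL against BJ they were -0.15 to 0.29 for KERA, -0.19 to 0.20 for OMD and -0.16 to 0.24 for OGN.

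Podocan (PODN, Entrez gene 127435), a member of a separate class named from the kidney podocyte and also made by vascular smooth muscle cells, had 6.21 and 6.27 in the arrays labelled BJELM and 6.16 and 6.44 in BJEL, against 9.53 and 8.66 in BJ. BJELM and BJEL overlapped, and both lay more than a 2-fold change below either BJ array. PODN fell by 2.86 ± 0.27 in BJELM against BJ (adjusted p = 0.000988), to 13.8% of the BJ signal, and by 2.80 ± 0.27 in BJEL against BJ (adjusted p = 0.0021), to 14.4%. The difference between BJELM and BJEL was -0.06 with an interval of -0.73 to 0.60 (adjusted p = 0.923).

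**Figure D2:**
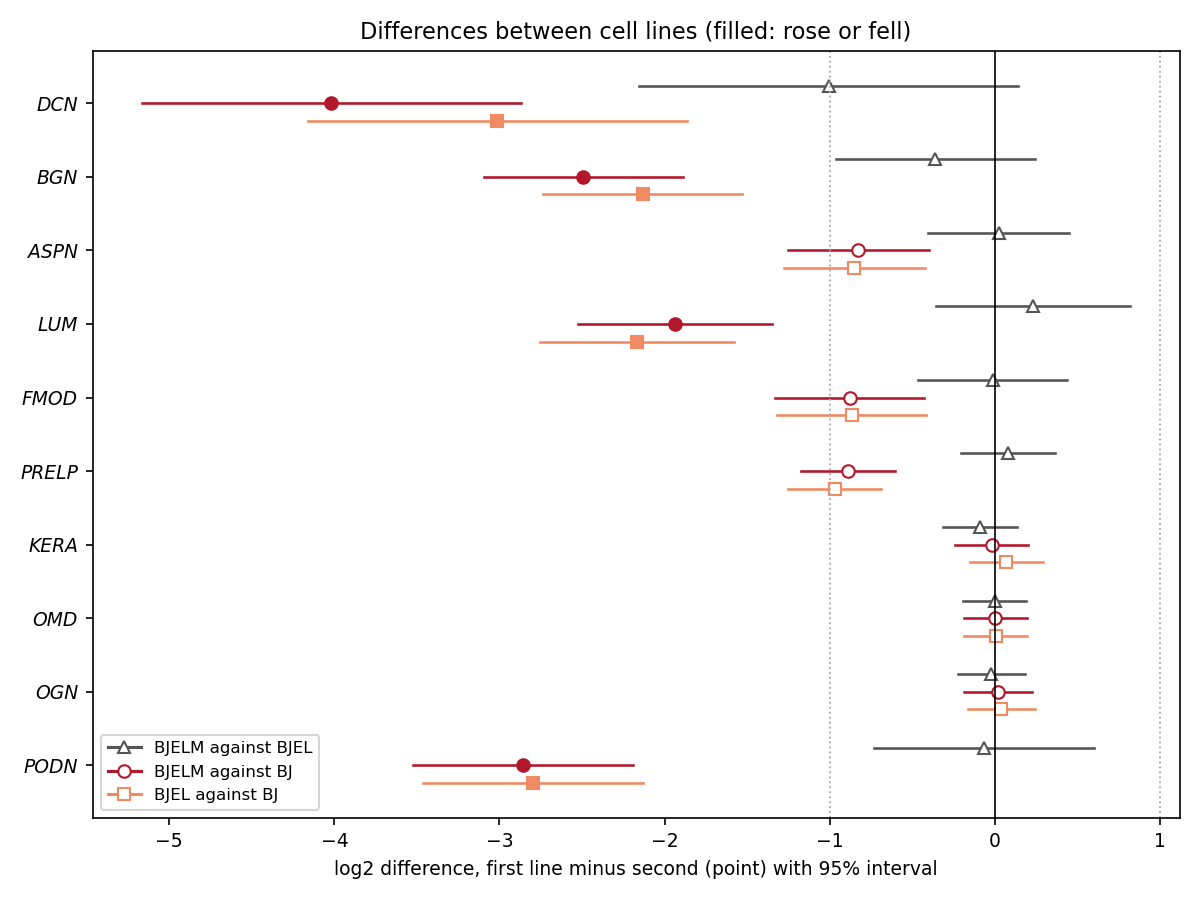
Log2 differences between cell lines (horizontal axis, points) with 95% intervals from the limma fit (lines) for each SLRP, BJELM against BJEL as triangles, BJELM against BJ as circles and BJEL against BJ as squares, filled where the gene rose or fell, with dotted lines at a 2-fold change. DCN, BGN, LUM and PODN are filled in both comparisons with BJ, and every interval of BJELM against BJEL includes 0.

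Lines that do not overlap are common with 2 arrays each: 7 of the 10 SLRPs did not overlap in BJELM against BJ (60.5% of all genes), 7 in BJEL against BJ (61.2%) and 3 in BJELM against BJEL (52.8%). Replicates differed in a way that depended on the gene and the line. In the arrays labelled BJELM, replicate 1 was above replicate 2 by 1.58 for DCN, 0.77 for LUM and 0.67 for BGN. In BJ, replicate 1 was above replicate 2 by 0.87 for PODN, 0.58 for FMOD, 0.47 for ASPN and 0.30 for PRELP, but by only 0.11 for DCN, 0.11 for BGN and 0.02 for LUM. For the members that fell, replicate 1 minus replicate 2 in BJEL was -0.46 for BGN and -0.29 for PODN, but 0.39 for DCN and 0.23 for LUM. Over all genes, replicate differences correlated between lines, as given with the processing.

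The pattern over the arrays was compared as the Euclidean distance between profiles of 6 arrays, each gene centred on its own mean, which is a description of these arrays. Among the 4 SLRPs that fell, the shortest distances were 0.829 for BGN and LUM, 1.00 for BGN and PODN and 1.31 for LUM and PODN. DCN lay further from these 3, at 1.76 from BGN, 1.84 from PODN and 2.18 from LUM. Its differences from BJ were also the largest of the 4, and what set the distances was not tested. The nearest of all genes to BGN was FBN2, the microfibril protein fibrillin 2, at 0.201, followed by GABARAPL1 at 0.390 and PSG3 at 0.393. Nearest to LUM were ASS1 (0.380), TCP11L2 (0.430) and EFEMP1, the matrix glycoprotein fibulin 3 (0.451). Nearest to PODN were LMOD1, a smooth muscle actin-binding protein (0.245), S100A4 (0.355) and GRIK2 (0.374). Nearest to DCN were MYOCD, the smooth muscle coactivator myocardin (0.893), PTGS2, the inducible cyclooxygenase (0.894), and MGARP (0.934).

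Most SLRP genes lie in clusters, and their order was read from RefSeq (GRCh38.p14) among the genes measured. On chromosome 12 the order was EPYC, KERA, LUM, DCN and BTG1. LUM and DCN fell there, with KERA beside them between 4.58 and 4.77 on all arrays. EPYC, another SLRP gene, differed by -0.06 in BJELM against BJ and -0.09 in BJEL against BJ, and BTG1, an antiproliferative gene, by -0.10 and 0.02. On chromosome 9 the order was CENPP, OGN, OMD, ASPN and ECM2. CENPP, a centromere protein gene, rose by 1.29 in BJELM against BJ (adjusted p = 0.000485), beside OGN at 0.02. On chromosome 1, FMOD and PRELP stood side by side between CHIT1 and OPTC, and PODN stood apart between ECHDC2 and SLC1A7. BGN lay on chromosome X between TREX2 and ATP2B3. Of the 10 neighbours that are not themselves among the 10 SLRPs, 1 rose in BJELM against BJ (CENPP), where 4.09% of all genes rose. By limma 0 passed in BJEL against BJ and 0 in BJELM against BJEL, with 1 at an unadjusted p under 0.05 in each. In BJEL against BJ it was CENPP, which differed by 0.84 (limma, adjusted p = 0.00335) and missed only the 2-fold minimum.

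**Figure D3:**
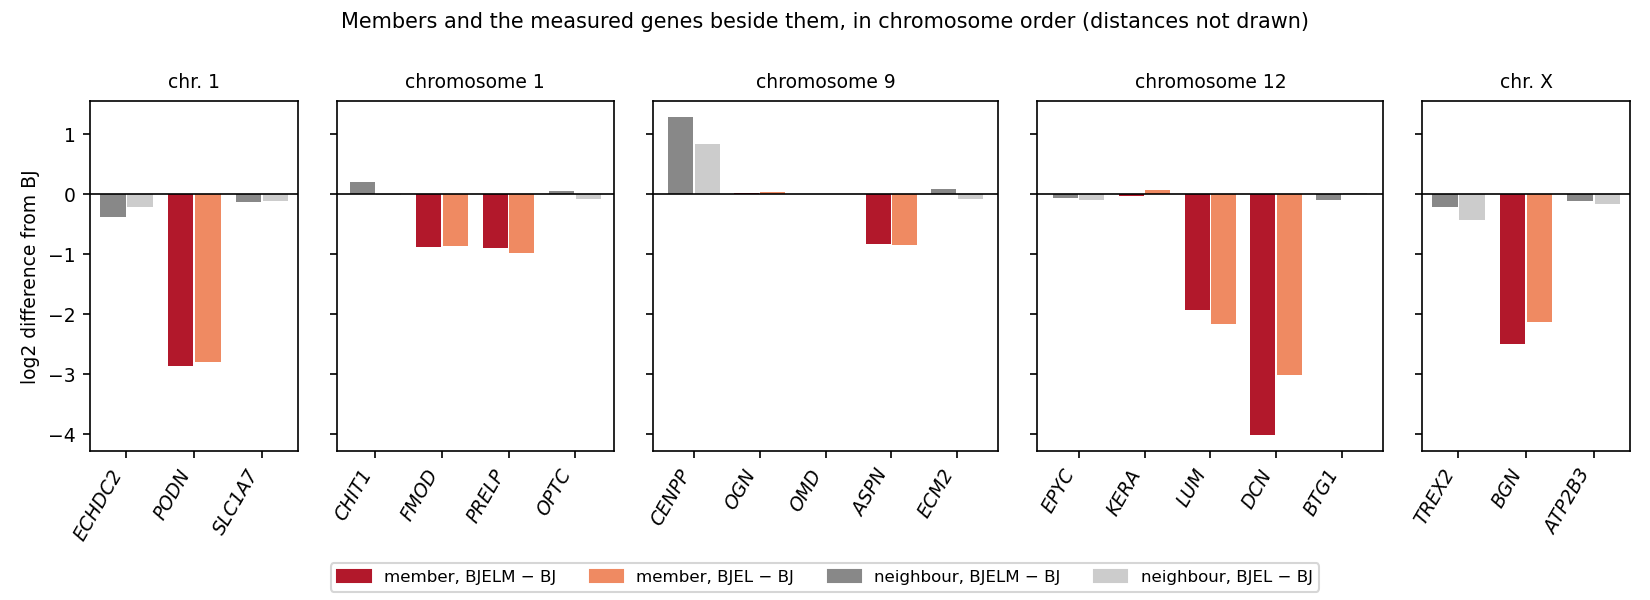
Log2 difference from BJ (vertical axis) of SLRP genes (red, BJELM minus BJ; orange, BJEL minus BJ) and of the measured genes next to them (dark grey, BJELM minus BJ; light grey, BJEL minus BJ), in chromosome order with distances not drawn. LUM and DCN on chromosome 12 are both low between KERA and BTG1, which stay near 0.

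The other genes of the family and pathway were followed as lists, chosen with earlier results of these data known. Beside the list counts, 4.70% of all genes fell and 4.09% rose in BJELM against BJ. In BJEL against BJ, 2.29% of all genes fell and 2.89% rose. Of 8 further SLRP genes (EPYC, OPTC, CHAD, CHADL, NYX, TSKU, PODNL1 and ECM2), only PODNL1 passed in BJELM against BJ or in BJEL against BJ. PODNL1, the gene most like podocan, had 6.39 and 6.47 in the arrays labelled BJELM and 6.66 and 6.76 in BJEL, against 8.62 and 7.72 in BJ. PODNL1 fell by 1.74 ± 0.27 in BJELM against BJ (adjusted p = 0.00517) and by 1.47 ± 0.27 in BJEL against BJ (adjusted p = 0.0161), and leaving out either BJEL array ended the BJEL call (adjusted p = 0.0924 without the first and 0.0663 without the second). The list's median difference was -0.01 in BJELM against BJ and -0.09 in BJEL against BJ.

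Of 27 genes that build, modify or supply chondroitin and dermatan sulfate chains, 6 fell in BJELM against BJ and 3 in BJEL against BJ, with list medians of -0.31 and -0.24. XYLT1, a xylosyltransferase that starts the chain on the core protein, had 8.39 and 8.39 in the arrays labelled BJELM and 8.34 and 8.74 in BJEL, against 10.11 and 9.90 in BJ. The lines with introduced genes lay below BJ, and XYLT1 fell by 1.61 ± 0.15 in BJELM against BJ (adjusted p = 0.000915) and by 1.47 ± 0.15 in BJEL against BJ (adjusted p = 0.00243). PAPSS2, which makes the sulfate donor, fell by 1.77 ± 0.12 in BJELM against BJ (adjusted p = 0.00034) and by 1.02 ± 0.12 in BJEL against BJ (adjusted p = 0.00322). Without BJEL replicate 1 the BJEL difference of PAPSS2 was -0.90, short of 2-fold. DSEL, an epimerase-like gene of dermatan sulfate synthesis, fell by 1.39 ± 0.09 in BJELM against BJ (adjusted p = 0.000275) and by 1.18 ± 0.09 in BJEL against BJ (adjusted p = 0.001). CHPF2, a chondroitin polymerising factor, fell by 1.27 ± 0.10 in BJELM against BJ (adjusted p = 0.000584) and differed by -0.63 in BJEL against BJ. Of 11 genes for keratan sulfate and tyrosine sulfation, 1 fell in BJELM against BJ. It was B4GALT4, a galactosyltransferase that extends keratan sulfate, at 6.58 on average in the arrays labelled BJELM and 7.67 in BJEL, against 7.78 in BJ, and it fell by 1.20 in BJELM against BJ (adjusted p = 0.000483) and by 1.09 in BJELM against BJEL (adjusted p = 0.00276).

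Of 13 collagen genes whose products SLRPs bind, 8 fell in BJELM against BJ (5 to 9 when each array was left out) and 3 in BJEL against BJ (2 to 5), with list medians of -1.16 and -0.90. COL1A2, a chain of type I collagen, had 10.99 and 9.98 in the arrays labelled BJELM and 10.89 and 10.65 in BJEL, against 12.67 and 12.28 in BJ. COL1A2 fell by 1.99 ± 0.33 in BJELM against BJ (adjusted p = 0.00617) and by 1.71 ± 0.33 in BJEL against BJ (adjusted p = 0.0178), and leaving out BJEL replicate 1, BJEL replicate 2 or BJ replicate 1 ended the BJEL call (adjusted p of 0.0757, 0.0861 and 0.106). Type I collagen's other chain, COL1A1, fell by 1.35 ± 0.16 in BJELM against BJ (adjusted p = 0.00207) and by 1.51 ± 0.16 in BJEL against BJ (adjusted p = 0.00272). COL6A3, of beaded filament collagen VI, which decorin and biglycan bind, fell by 1.99 ± 0.16 in BJELM against BJ (adjusted p = 0.00054) and by 1.54 ± 0.16 in BJEL against BJ (adjusted p = 0.00228). COL3A1, of type III collagen, fell by 1.35 ± 0.28 in BJELM against BJ (adjusted p = 0.0152; 0.0866 without BJ replicate 1, and short of 2-fold at -0.92 without BJELM replicate 2) and differed by -0.99 in BJEL against BJ (adjusted p = 0.064). After quantile normalisation 6 collagens passed in BJEL against BJ, COL3A1 among them at -1.06 (adjusted p = 0.0304).

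Of 20 receptors and ligands that SLRPs bind, 1 rose and 6 fell in BJELM against BJ, and 1 rose and 5 fell in BJEL against BJ, with list medians of -0.36 and -0.21. TLR4, a Toll-like receptor that soluble biglycan engages, had 5.73 and 5.52 in the arrays labelled BJELM and 7.34 and 6.83 in BJEL, against 9.15 and 8.93 in BJ. The 3 lines did not overlap, and TLR4 fell by 3.41 ± 0.19 in BJELM against BJ (adjusted p = 0.000208), by 1.96 ± 0.19 in BJEL against BJ (adjusted p = 0.00192) and by 1.46 ± 0.19 in BJELM against BJEL (adjusted p = 0.00829). LRP1, an endocytic receptor that takes up decorin, fell by 2.26 ± 0.18 in BJELM against BJ (adjusted p = 0.000573) and by 1.84 ± 0.18 in BJEL against BJ (adjusted p = 0.00206). TGFB2, a growth factor of the TGF-beta family that decorin can bind, rose by 1.53 ± 0.22 in BJELM against BJ (adjusted p = 0.00404) and by 1.59 ± 0.22 in BJEL against BJ (adjusted p = 0.00622). BMP4, a bone morphogenetic protein, had 7.90 and 6.93 in the arrays labelled BJELM and 10.23 and 9.30 in BJEL, against 8.56 and 7.88 in BJ. In every line replicate 1 was the higher, and BMP4 fell by 2.35 ± 0.44 in BJELM against BJEL (adjusted p = 0.0247; 0.123 without BJEL replicate 1 and 0.0857 without BJELM replicate 2). BMP4 differed by 1.55 in BJEL against BJ (adjusted p = 0.0623), and with the replicate number as a block this difference passed (adjusted p = 8.6e-05). It also passed without either BJELM array, with only the 2 lines compared, after median centring, with an intensity trend and a robust prior and with either filter on dim genes (adjusted p of 0.0382 to 0.0455).

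Of 14 proteases and cofactors that cleave SLRPs or their precursors, 1 rose and 7 fell in BJELM against BJ (5 to 8 in all when each array was left out), and 3 fell in BJEL against BJ (2 to 3), with list medians of -0.93 and -0.54. TLL1, which like BMP1 trims the propeptides of collagens and of biglycan, had 8.09 and 8.04 in the arrays labelled BJELM and 5.60 and 5.59 in BJEL, against 5.53 and 5.49 in BJ. The arrays labelled BJELM stood apart, and TLL1 rose by 2.55 ± 0.08 in BJELM against BJ (adjusted p = 5.7e-05) and by 2.47 ± 0.08 in BJELM against BJEL (adjusted p = 0.00024). MMP3, the stromelysin that degrades decorin, had 6.99 and 7.66 in the arrays labelled BJELM and 8.92 and 9.34 in BJEL, against 10.89 and 11.80 in BJ. MMP3 fell by 4.02 ± 0.35 in BJELM against BJ (adjusted p = 0.000751), it fell by 2.21 ± 0.35 in BJEL against BJ (adjusted p = 0.00993; 0.0678 without BJEL replicate 1), and it fell by 1.81 ± 0.35 in BJELM against BJEL (adjusted p = 0.0282; 0.0832 to 0.128 without BJELM replicate 1, BJEL replicate 1 or BJEL replicate 2). MMP2, a gelatinase, fell by 1.34 ± 0.18 in BJELM against BJ (adjusted p = 0.00315) and by 2.34 ± 0.18 in BJEL against BJ (adjusted p = 0.00117), and rose by 1.00 ± 0.18 in BJELM against BJEL (adjusted p = 0.0227), which did not pass with BJELM replicate 1 (0.0526), BJEL replicate 1 (0.0642) or BJEL replicate 2 (0.103) left out. ADAMTS1, an aggrecan-cleaving protease, fell by 2.51 ± 0.32 in BJELM against BJ (adjusted p = 0.00247) and by 1.70 ± 0.32 in BJEL against BJ (adjusted p = 0.0165; 0.0993 without BJ replicate 1 and 0.0653 without BJEL replicate 2).

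**Figure D4:**
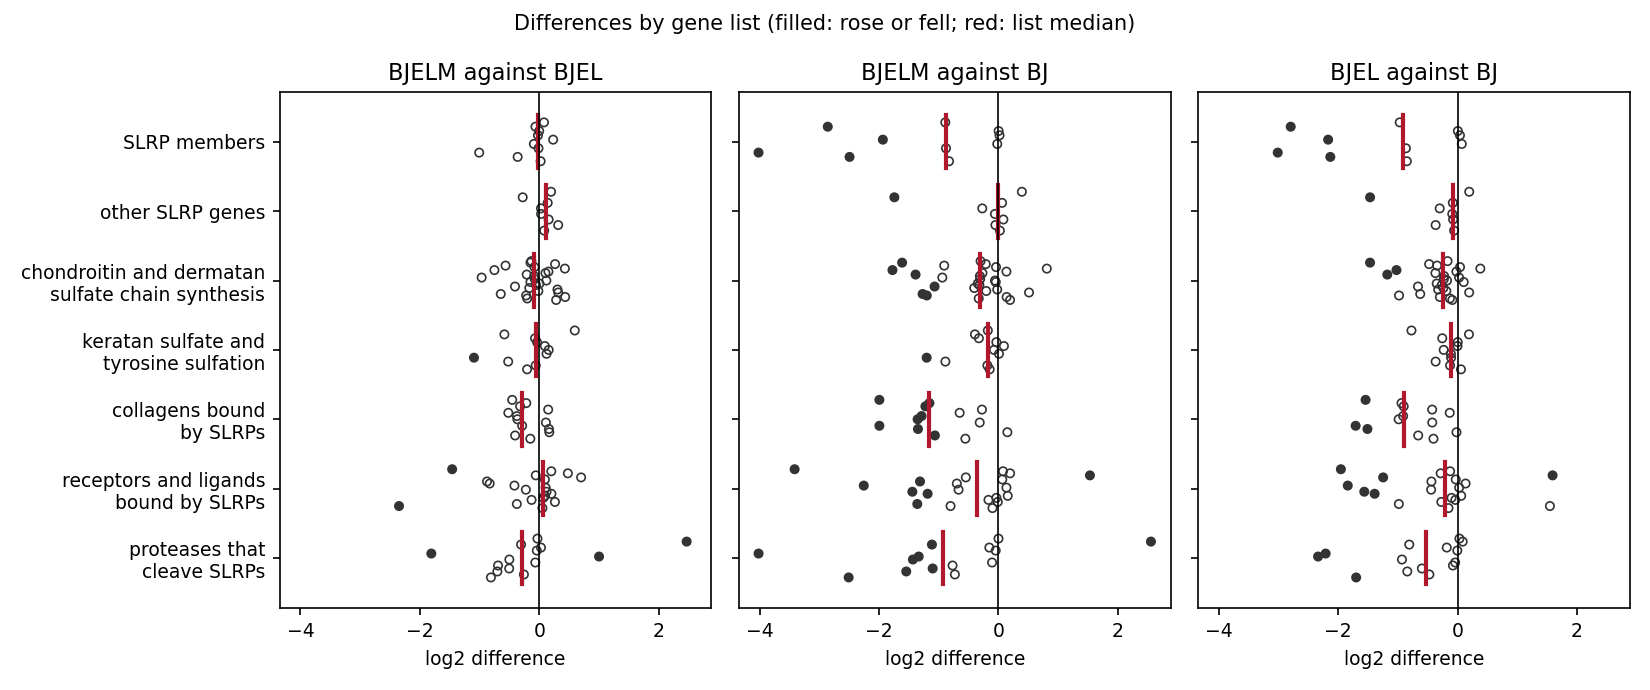
Log2 difference (horizontal axis) of each measured gene of the SLRP list and 6 related lists, for BJELM against BJEL, BJELM against BJ and BJEL against BJ from left to right, with filled points for genes that rose or fell and red bars for list medians. The SLRP and collagen medians lie near -1 in both comparisons with BJ and closer to 0 in BJELM against BJEL.

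Of the 12 fibroblast markers, 8 fell in BJELM against BJ and 5 in BJEL against BJ, with list medians of -1.44 and -0.98, and their summed log2 signal ranged over 124 to 129 in the arrays labelled BJELM and 130.2 to 131 in BJEL, against 142 to 145 in BJ. The list shares COL1A1, COL1A2 and COL3A1 with the collagens. S100A4, often used as a fibroblast marker, had 6.26 and 6.30 in the arrays labelled BJELM and 6.01 and 6.34 in BJEL, against 9.63 and 8.96 in BJ, close to the profile of PODN as given above. Among markers of other cell types 1 of 8 epithelial, 1 of 6 blood and 2 of 5 tendon markers fell in BJELM against BJ (KRT19, CD68, MKX and EGR1), and 1 of 5 tendon markers in BJEL against BJ (MKX), named here after their values were seen. The part of these markers in the SLRP differences was not tested.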

How the data were processed

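Gene expression was measured on 6 arrays, 2 replicates of each cell line per the labels, which the study's methods call biological. The authors normalised the scanner files with Affymetrix Expression Console 1.3.1 (RMA, default settings), and the deposited table holds log2 signals of 33297 probe sets with array medians of 6.37 to 6.46; its platform build is not given in the sources used here. In GEO's annotation 19460 probe sets have 1 gene symbol, 1754 several and 12083 none listed. Each gene was taken from its single-symbol probe set with the highest mean (18417 genes, 18389 matched to RefSeq by Entrez ID). limma 3.58.1 in R 4.3.3 fitted 1 mean per line to all 6 arrays, tested with eBayes (two-sided) and Benjamini-Hochberg adjustment over all genes. The fit was tested on simulated data. Calls needed an adjusted p under 0.05 and a 2-fold change, the minimum in the study's methods.

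Over genes, the difference of replicate 1 minus replicate 2 correlated between lines at 0.481 (BJELM and BJ), 0.448 (BJEL and BJ) and 0.553 (BJELM and BJEL). The labels give only replicate numbers, so whether same-numbered arrays shared a batch or culture is not known, and the cause of these correlations was not tested. The fit has no block, since the methods name none.

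The members and lists were chosen with earlier results of these data known. Named genes were all members and up to 4 called genes per related list with the largest difference. Also named were the 3 nearest profiles to each member that fell, neighbours in chromosome order, TERT, MYC and CCND2. Markers of other cell types at low signal were named as well. S100A4 is named as a near profile. VIM, KRT8, KRT14, KRT18, KRT19, CD14, CD68, CLDN5, MKX and EGR1 were named after their values were seen. Alternatives were each array left out, only the lines compared, the replicate number as a block, quantile normalisation, median centring, an intensity trend with a robust prior, filters on dim genes, other probe set rules, other fold and p thresholds, and the methods' t-test in its plain form. The number of arrays limits the precision. Protein sequences were not analysed here.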

Additional observations from a re-analysis of the deposited data

How the results depend on the processing

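With no fold minimum, 7 SLRPs passed in BJELM against BJ and 7 in BJEL against BJ, and with a 1.5-fold minimum 7 and 7. Over all genes, 1619 passed in BJELM against BJ, 954 in BJEL against BJ and 494 in BJELM against BJEL; these were 5195, 3228 and 1992 with no fold minimum and 3562, 2110 and 1345 with a 1.5-fold minimum. By the plain form of the methods' t-test at its unadjusted threshold, 0 and 2 SLRPs and 880, 465 and 231 genes passed. After Benjamini-Hochberg adjustment it passed 0 and 0 SLRPs and 0, 0 and 0 genes. With each array left out, 4 to 7 SLRPs passed in BJELM against BJ, 3 to 7 in BJEL against BJ and 0 to 1 in BJELM against BJEL. Genes passing then numbered 1393 to 1782, 718 to 1026 and 347 to 599. With the replicate number as a block, 4, 4 and 0 SLRPs and 1644, 993 and 544 genes passed, and BMP4 in BJEL against BJ was the 1 named result whose call changed under the block. After quantile normalisation 6 collagens passed in BJEL against BJ, against 3. BGN, LUM and PODN passed in both comparisons with BJ under every alternative that could be run except the plain form of the methods' t-test.

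Under the alternatives run, the signs that turned were of differences that had not passed. After quantile normalisation OMD was -0.011 in BJELM against BJ and -0.0034 in BJEL against BJ, OGN -0.0011 in BJELM against BJ and TERT 0.017 in BJELM against BJEL. After median centring KERA was 0.022 in BJELM against BJ, and FMOD 0.029, OMD 0.040, OGN 0.021 and TERT 0.012 in BJELM against BJEL. With each array left out the differences in BJELM against BJ ranged from -0.067 to 0.028 for KERA, -0.011 to 0.018 for OMD, -0.011 to 0.048 for OGN and -0.63 to 0.036 for MYC. In BJEL against BJ they ranged from -0.00067 to 0.14 for KERA, -0.011 to 0.021 for OMD and -0.0011 to 0.079 for OGN. In BJELM against BJEL they ranged from -0.11 to 0.16 for ASPN, -0.15 to 0.62 for LUM, -0.057 to 0.033 for FMOD, -0.017 to 0.015 for OMD, -0.061 to 0.020 for OGN, -0.21 to 0.080 for PODN, -0.35 to 0.056 for XYLT1, -0.16 to 0.097 for TERT, -0.073 to 0.40 for COL1A1, -0.79 to 0.22 for COL1A2, -0.80 to 0.068 for COL3A1 and -0.27 to 0.15 for TGFB2. The causes were not tested. Counts of the lists and alternatives for their named genes were added after the values were seen. A filter on genes at or above the median level kept 3 SLRPs, and a filter on a mean of at least 6 in a line kept 6.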
